A study of Homo sapiens with 4 samples.

Results

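The 10 genes described here encode protease inhibitors of epithelia and secretions, chosen from 25343 gene symbols in each of 4 RNA-seq libraries. They were taken by symbol from 5 families: the WAP inhibitors PI3, SLPI and WFDC2, the Kazal inhibitor SPINK1, the Kunitz inhibitors SPINT1 and SPINT2, the clade B serpins SERPINB1, SERPINB5 and SERPINB9, and the cystatin CST3. PI3 and SLPI were included because they were higher in the knockdown library of Huh7, so that contrast is given as a description with no test. The libraries came from Huh7 and PLC/PRF/5, established human hepatocellular carcinoma lines. Each line was sequenced once after lentiviral delivery of the hairpin shSCD1#13 against SCD, an enzyme that puts a double bond into saturated fatty acids, and once after delivery of a non-target control hairpin. All 4 cultures were stably transduced, selected with puromycin and grown in the same serum-supplemented medium. A single hairpin was used and no culture was replicated, so effects of that hairpin other than loss of SCD cannot be told apart from the knockdown, and differences within a line have no replicate check. Not every one of these proteins leaves the cell: SPINT1 and SPINT2 are anchored in the membrane, and the clade B serpins act mainly in the cytosol and nucleus.

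Protease inhibitors of this kind hold in check enzymes released by leukocytes, such as neutrophil elastase, and enzymes at the surface of epithelial cells, such as matriptase. WAP, Kazal and Kunitz domains plug the active site of a serine protease with a rigid, disulfide-bonded loop. Serpins act as bait that traps the enzyme after cleavage, and cystatins block the lysosomal cysteine cathepsins. In liver, Kunitz inhibitors bear on the release of active hepatocyte growth factor, and SPINK1, a trypsin inhibitor of the pancreas, is also made by hepatocellular carcinoma.

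Values are TPM, transcript levels scaled by transcript length and to a common total in each library. SCD itself stood at 137 TPM in the Huh7 knockdown and 1755 TPM in the Huh7 control, and at 178 TPM in the PLC/PRF/5 knockdown and 1111 TPM in the PLC/PRF/5 control. The 8 hepatocyte markers summed to between 28723 and 31670 TPM in Huh7 and between 2069 and 3657 TPM in PLC/PRF/5. Of 7 leukocyte markers, 5 stayed under 1 TPM in every library, among them PTPRC, MPO and ELANE. CD68 lay between 8.76 and 27.0 TPM, and LYZ, a secreted lysozyme that these lines transcribe, stood at 1008 TPM or more. Of 4 endothelial markers, 3 stayed under 1 TPM in every library. The 4 cholangiocyte or progenitor markers summed to 827 TPM in the Huh7 knockdown and 495 TPM in the Huh7 control, and to 47.9 and 40.4 TPM in the PLC/PRF/5 knockdown and control, with KRT7 at 0.64 TPM or less throughout. KRT19 and EPCAM were higher in the Huh7 knockdown, at 564 and 131 TPM, than in the Huh7 control, at 274 and 50.1 TPM, while SOX9 was lower, at 132 TPM in the knockdown and 171 TPM in the control. The 6 stellate cell or fibroblast markers summed to 77.6 and 55.8 TPM in the Huh7 knockdown and control, and to 2.53 and 3.47 TPM in the PLC/PRF/5 knockdown and control. LUM was the largest part of that sum in the Huh7 knockdown, at 60.0 TPM, and stood at 10.8 TPM in the Huh7 control. COL1A2, the largest part in the Huh7 control at 30.9 TPM, was lower in the knockdown, at 9.63 TPM, as were COL1A1 and PDGFRB. KRT19, EPCAM and LUM thus move with PI3, SLPI and SPINT1 of Huh7, and their part in those results was not tested.

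**Figure D1:**
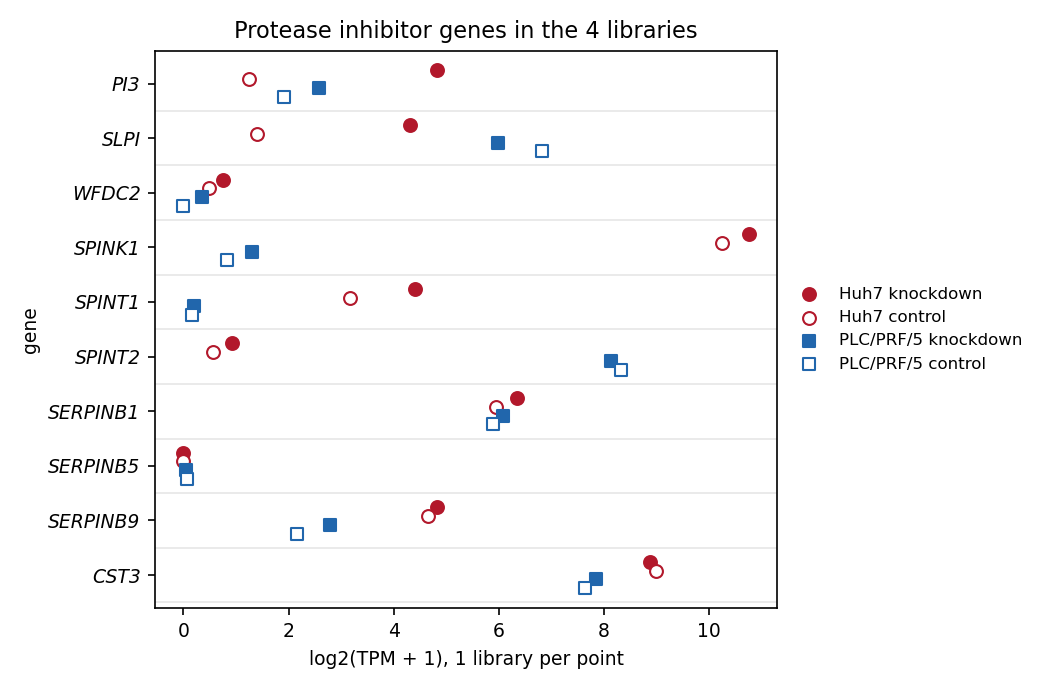
Level of each of the 10 inhibitor genes, as log2(TPM + 1) on the x axis, with 1 point per library; filled symbols are knockdown libraries, open symbols controls, circles Huh7 and squares PLC/PRF/5. SPINK1 sits at 1208 TPM or more in Huh7 and at 1.46 TPM or less in PLC/PRF/5, SPINT2 shows the reverse order, and SERPINB1 lies between 57.95 and 79.9 TPM in all 4 libraries.

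Taken as one pool of transcripts, the 10 genes summed to 2378 TPM in the Huh7 knockdown and 1813 TPM in the Huh7 control, and to 649 and 692 TPM in the PLC/PRF/5 knockdown and control. The lines filled that pool with different genes. SPINK1 made up 72.9% of it in the Huh7 knockdown and 66.6% in the Huh7 control, but 0.225% and 0.113% in the PLC/PRF/5 knockdown and control. SPINT2 held 42.8% and 46.0% in the PLC/PRF/5 knockdown and control, and 0.0383% and 0.0259% in those of Huh7. CST3 was a large part of the pool in both lines, between 19.8% and 35.4%.

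Among the WAP genes, PI3 encodes elafin, which inhibits neutrophil elastase and proteinase 3 and is tied into the cornified layer of skin by transglutaminases. PI3 stood at 27.3 TPM in the Huh7 knockdown and 1.37 TPM in the Huh7 control, and at 4.95 TPM in the PLC/PRF/5 knockdown and 2.77 TPM in the PLC/PRF/5 control. The Huh7 knockdown was the highest of the 4 libraries and the Huh7 control the lowest. On the scale log2((knockdown TPM + 1)/(control TPM + 1)), which understates differences of low genes, PI3 differed by 3.58 in Huh7, the third highest value of 13485 genes considered there, and by 0.66 in PLC/PRF/5. In a bulk culture, more cells that transcribe a gene and more RNA per cell cannot be told apart. SLPI, the secretory leukocyte protease inhibitor of airway and gland fluids, blocks elastase and cathepsin G. It stood at 18.9 TPM in the Huh7 knockdown and 1.65 TPM in the Huh7 control, and at 62.6 TPM in the PLC/PRF/5 knockdown and 111 TPM in the PLC/PRF/5 control. Both PLC/PRF/5 libraries were above both Huh7 libraries, and the knockdown was the higher arm in Huh7 and the lower arm in PLC/PRF/5. The log2 differences were 2.91 in Huh7, the sixth highest value there, and -0.82 in PLC/PRF/5, where 2.08% of the genes considered had a value as low or lower. The gap between the lines' differences was 2.92 for PI3 and 3.73 for SLPI on the log2 scale; with 1 library per group it has no test. WFDC2, which encodes HE4, a serum marker of ovarian cancer, was at 0.68 and 0.4 TPM in the Huh7 knockdown and control, at 0.28 TPM in the PLC/PRF/5 knockdown and listed at 0 in the PLC/PRF/5 control.

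PI3 and SLPI lie on chromosome 20 in a cluster of WAP genes, and their nearest protein-coding neighbours there were almost silent. WFDC5, WFDC12 and SEMG2, a semenogelin gene between PI3 and SLPI, were listed at 0 in all 4 libraries, and SEMG1 reached 0.13 TPM in the PLC/PRF/5 knockdown alone. On the far side of SLPI, MATN4, a matrilin gene, lay between 0.11 and 0.15 TPM and RBPJL was listed at 0. None of these neighbours shared the high values of PI3 and SLPI in the Huh7 knockdown. Of 14 other WAP genes, 8 were listed at 0 in every library and 13 stayed under 1 TPM. The exception was WFIKKN1, an antagonist of growth and differentiation factors that carries a WAP domain among others, at 2.73 TPM in the Huh7 knockdown and 14.5 TPM in the Huh7 control, and at 0.19 and 0.16 TPM in the PLC/PRF/5 knockdown and control. Its difference in Huh7 was -2.06 on the log2 scale, opposite in sign to those of PI3 and SLPI.

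SPINK1 was the most abundant of the 10 genes in Huh7. It stood at 1733 TPM in the Huh7 knockdown and 1208 TPM in the Huh7 control, and at 1.46 TPM in the PLC/PRF/5 knockdown and 0.78 TPM in the PLC/PRF/5 control. Among all gene symbols by level it was at percentiles 99.8 and 99.5 in the Huh7 knockdown and control, and at 51.1 and 49.0 in those of PLC/PRF/5. The line difference, Huh7 minus PLC/PRF/5, was 9.43 in the limma fit over both arms, and it had rank 2 in size among 13813 genes. It was 10.27 with a pseudocount of 0.1 TPM and 7.89 with a pseudocount of 5 TPM. SPINK1 met the filter of that fit only through Huh7, so its line difference is given as a value with no test. The knockdown differences were 0.52 in Huh7 and 0.47 in PLC/PRF/5, neither of them 2-fold. Of its neighbours on chromosome 5, SCGB3A2 was listed at 0 in every library. JAKMIP2, a gene for a microtubule-associated protein, was at 1.09 and 1.67 TPM in the Huh7 knockdown and control and at 0.03 and 0.02 TPM in the PLC/PRF/5 knockdown and control. C5orf46 was at 4.85 and 1.41 TPM in the Huh7 knockdown and control, and at 0.14 TPM in the PLC/PRF/5 knockdown and 0 in the PLC/PRF/5 control. JAKMIP2 and C5orf46 were thus higher in Huh7, as SPINK1 was, at far lower levels. The line order of DPYSL3, beyond JAKMIP2, changed with the arm. It was at 0.94 and 1.65 TPM in the Huh7 knockdown and control and at 1.18 and 0.62 TPM in those of PLC/PRF/5. Among 13 other Kazal-domain genes, 10 stayed under 1 TPM in every library. SPINK5, the LEKTI inhibitor of skin kallikreins, stood at 3.23 and 2.12 TPM in the Huh7 knockdown and control and at 0.3 and 0.27 TPM in the PLC/PRF/5 knockdown and control. RECK, an inhibitor of matrix metalloproteases, and SPOCK2, a proteoglycan of the matrix, were also higher in Huh7, by 1.21 (standard error 0.22, limma adjusted p = 0.0084) and 3.60 (standard error 0.18, limma adjusted p = 3.8e-04).

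The Kunitz genes SPINT1 and SPINT2 encode HAI-1 and HAI-2, which inhibit matriptase, hepsin and the activator of hepatocyte growth factor. Each line transcribed mainly one of them. SPINT1 stood at 20.3 TPM in the Huh7 knockdown and 7.94 TPM in the Huh7 control, and at 0.15 TPM in the PLC/PRF/5 knockdown and 0.12 TPM in the PLC/PRF/5 control. SPINT2 stood at 0.91 TPM in the Huh7 knockdown and 0.47 TPM in the Huh7 control, and at 278 TPM in the PLC/PRF/5 knockdown and 318 TPM in the PLC/PRF/5 control. SPINT1 was thus 95.7% and 94.4% of the summed pair in the Huh7 knockdown and control, against 0.0539% and 0.0377% in those of PLC/PRF/5. The sum was 21.2 and 8.41 TPM in the Huh7 knockdown and control, and 278 and 318 TPM in the PLC/PRF/5 knockdown and control, so Huh7 carried the lower total in each arm. The line difference was 3.60 for SPINT1 and -7.48 for SPINT2 on the log2 scale. Each of these genes reached the minimum of 1 TPM only in the line where it is high, so its line difference is given as a value with no test. SPINT1 differed by 1.25 in Huh7, a difference of at least 2-fold that became 0.97 with a pseudocount of 5 TPM, and by 0.04 in PLC/PRF/5; SPINT2 differed by 0.38 and -0.19. The neighbours of SPINT1 were higher in PLC/PRF/5 in each arm, against the line order of SPINT1, and those of SPINT2 were mixed. RHOV, next to SPINT1, stood at 0.92 and 0.91 TPM in the Huh7 knockdown and control and at 2.65 and 3.93 TPM in the PLC/PRF/5 knockdown and control, and PPP1R14D, on its other side, reached 0.3 TPM. Further out, ZFYVE19 was at 16.7 and 14.7 TPM in the Huh7 knockdown and control, against 24.5 and 22 TPM in those of PLC/PRF/5. VPS18 was at 22.9 and 17.1 TPM in the Huh7 knockdown and control, against 40.2 and 34.9 TPM in those of PLC/PRF/5. YIF1B, next to SPINT2, stood at 21.5 and 20.4 TPM in the Huh7 knockdown and control, against 74.0 and 66.0 TPM in those of PLC/PRF/5, and PPP1R14A, on its other side and overlapping it on the opposite strand, was higher in Huh7, at 2.59 and 7.49 TPM in the knockdown and control, than in PLC/PRF/5, at 0 and 0.09 TPM. SPINT1 is overlapped on the opposite strand by SPINT1-AS1 over 2.8% of its exon bases in GENCODE 29. The strand setting of the counting is not given in the sources used here, so reads of SPINT1 and SPINT1-AS1 cannot be told apart there. SPINT2 is overlapped on the same strand by AC011479.1, a protein-coding gene with no row of its own in these libraries, over 4.7% of its exon bases.

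Promoter sequences, windows of 300 bases that run across the annotated start, were matched in RefSeq (GRCh38.p14) for 7 of the 10 genes, in 8 windows. PI3, SLPI and SPINT2 had no window, so their promoters were not searched. SPINT1 and SPINK1 are shown because they are the genes of the set with the largest Huh7 excess, and SERPINB9 because its line difference came next. Capitals mark matches to the motifs searched on both strands: TGANTCA for AP-1, a motif for NF-kB, TCACNCCAC for SREBP, TATAAA for the TATA box and CCGGAAG for ETS factors, none of which overlap in these windows.
SPINT1 (chr15:40843798-40844097, plus strand): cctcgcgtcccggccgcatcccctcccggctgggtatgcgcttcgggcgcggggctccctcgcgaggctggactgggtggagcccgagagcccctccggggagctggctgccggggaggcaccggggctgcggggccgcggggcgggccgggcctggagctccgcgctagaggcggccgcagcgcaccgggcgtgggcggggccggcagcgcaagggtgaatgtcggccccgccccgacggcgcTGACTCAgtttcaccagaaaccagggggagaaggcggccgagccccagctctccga
SPINK1 (chr5:147831622-147831921, minus strand): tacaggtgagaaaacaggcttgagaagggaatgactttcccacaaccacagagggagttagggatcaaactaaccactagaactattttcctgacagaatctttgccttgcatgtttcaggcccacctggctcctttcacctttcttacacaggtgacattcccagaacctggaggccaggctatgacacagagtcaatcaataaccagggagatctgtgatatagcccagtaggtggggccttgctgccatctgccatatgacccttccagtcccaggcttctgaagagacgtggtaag
SERPINB9 (chr6:2903260-2903559, minus strand): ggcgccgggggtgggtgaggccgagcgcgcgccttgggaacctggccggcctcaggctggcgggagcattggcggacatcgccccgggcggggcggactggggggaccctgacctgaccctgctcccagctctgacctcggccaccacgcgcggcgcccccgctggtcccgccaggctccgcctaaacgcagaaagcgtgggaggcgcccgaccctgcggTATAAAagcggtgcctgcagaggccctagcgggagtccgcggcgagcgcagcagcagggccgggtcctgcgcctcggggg
The AP-1 letters of SPINT1 begin at position -6 from its start and occur in 7.71% of all 35116 windows; the window at the other annotated SPINT1 start holds none of the motifs. The window of SPINK1 holds none of them. The TATA letters of SERPINB9 begin at -30 and occur in 11.5% of all windows. Among the other matched genes, the SERPINB5 window holds AP-1 letters at -146, and the SERPINB1 and CST3 windows ETS letters at -153 and -41, which 10.3% of all windows hold. No window of the matched genes holds the NF-kB or SREBP letters, found in 1.4% and 1.13% of all windows. This says nothing of PI3, SLPI and SPINT2, which were not searched. A match describes letters only and is neither a site nor a cause.

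Among the clade B serpins, SERPINB1, the leukocyte elastase inhibitor of the cytosol, was the most even of the abundant genes. It stood at 79.9 TPM in the Huh7 knockdown and 60.5 TPM in the Huh7 control, and at 66.1 TPM in the PLC/PRF/5 knockdown and 57.95 TPM in the PLC/PRF/5 control. The knockdown was the higher arm in each line, by 0.39 and 0.19 on the log2 scale, and the line difference of 0.17 (standard error 0.11) did not pass in limma (adjusted p = 0.234). SERPINB9 inhibits granzyme B, the death-inducing protease of cytotoxic lymphocytes. SERPINB9 stood at 27.2 TPM in the Huh7 knockdown and 24 TPM in the Huh7 control, and at 5.95 TPM in the PLC/PRF/5 knockdown and 3.48 TPM in the PLC/PRF/5 control. Both Huh7 libraries were above both PLC/PRF/5 libraries, by 2.25 with a standard error of 0.18 (limma adjusted p = 0.0010), and the knockdown differences were 0.17 in Huh7 and 0.63 in PLC/PRF/5. SERPINB5, or maspin, a serpin not known to inhibit a protease by the serpin mechanism, was listed at 0 in both Huh7 libraries and at 0.03 and 0.05 TPM in the PLC/PRF/5 knockdown and control. SERPINB1, SERPINB9 and SERPINB6 lie next to each other on chromosome 6 and had different line orders. SERPINB6, an inhibitor of cathepsin G and other serine proteases, was lower in Huh7, at 58.3 and 52.6 TPM in the knockdown and control, than in PLC/PRF/5, at 139 and 144 TPM (line difference -1.33, standard error 0.10, limma adjusted p = 8.6e-04). On chromosome 18, SERPINB12 and SERPINB13 beside SERPINB5 were listed at 0 throughout. They are among the 8 of 10 other clade B serpins that were at 0 in every library. SERPINB8, an inhibitor of furin, was at 6.91 and 1.76 TPM in the Huh7 knockdown and control, a difference of 1.52, and at 12.8 and 10.5 TPM in the PLC/PRF/5 knockdown and control, a difference of 0.26.

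CST3, cystatin C, is secreted by nearly all nucleated cells and inhibits lysosomal cysteine cathepsins that reach the outside. It stood at 470.3 TPM in the Huh7 knockdown and 509 TPM in the Huh7 control, and at 229 TPM in the PLC/PRF/5 knockdown and 198 TPM in the PLC/PRF/5 control. Huh7 was the higher line in each arm, by 1.20 with a standard error of 0.11 (limma adjusted p = 0.0014). The knockdown differences were -0.11 in Huh7 and 0.21 in PLC/PRF/5, small and of opposite sign. Among 8 other cystatins, 4 were listed at 0 in every library. CSTB, the cytosolic cystatin B, was lower in the knockdown library of each line, at 131 and 182 TPM in the Huh7 knockdown and control and at 252 and 365 TPM in the PLC/PRF/5 knockdown and control, with a mean log2 difference of -0.51 (standard error 0.08) that did not pass in limma (adjusted p = 0.147).

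In Huh7, 7 of the 10 genes reached 1 TPM in at least 1 library of the pair; 6 of these were higher and 1 lower in the knockdown. At least 2-fold higher were PI3, SLPI and SPINT1, and none was 2-fold lower, where 3.1% of all 13485 genes considered were 2-fold higher and 1.54% 2-fold lower. The median difference of the 7 was 0.52, beside 0.08 over all genes considered. Nothing is read from this count, because PI3 and SLPI were chosen on that contrast. In PLC/PRF/5, 7 genes were considered, 5 higher and 2 lower, and none differed 2-fold in either direction, where 1.72% of 13057 genes were 2-fold higher and 1.11% 2-fold lower. Their median was 0.21, beside 0.10 over all genes considered. The largest of these differences was that of SLPI, at -0.82. Scaling by median ratios moved the median over all genes by -0.08 in Huh7 and by -0.11 in PLC/PRF/5, and the higher share of 2-fold genes to 44.3% in PLC/PRF/5, against 60.8% as deposited; it turned the sign of no member.

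**Figure D2:**
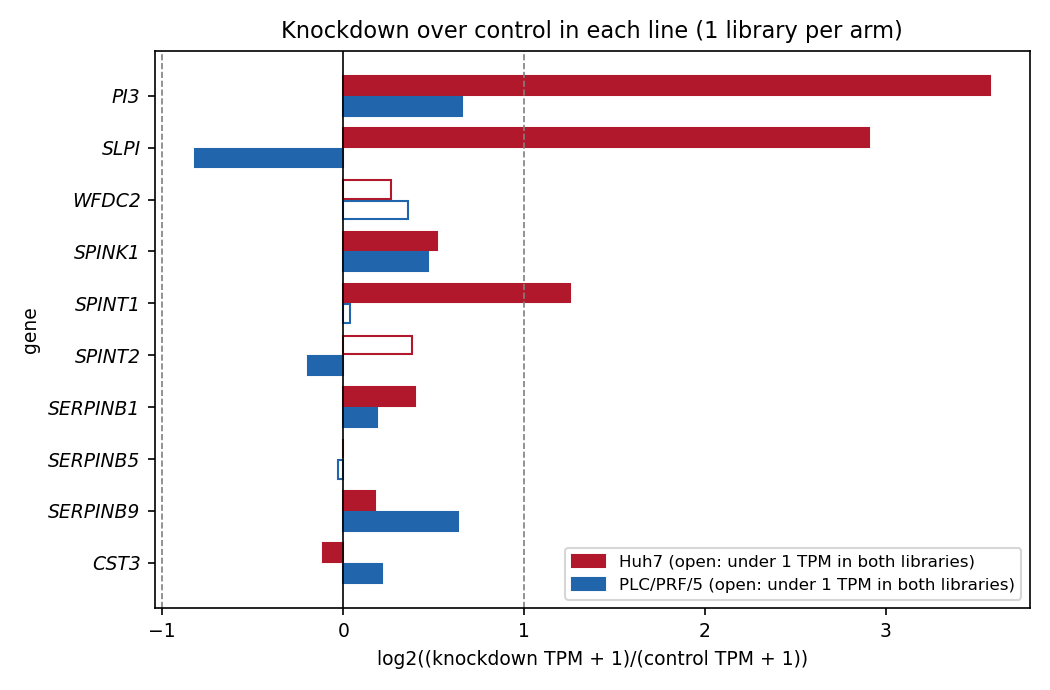
Log2((knockdown TPM + 1)/(control TPM + 1)) on the x axis for each inhibitor gene, red for Huh7 and blue for PLC/PRF/5, from 1 library per arm; open bars are genes under 1 TPM in both libraries of the pair and dashed lines mark 2-fold. PI3 (3.58), SLPI (2.91) and SPINT1 (1.25) pass the line in Huh7 and no gene does in PLC/PRF/5.

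Between the lines, the fit across all genes tested the mean difference of Huh7 and PLC/PRF/5 over both arms, set against how far the arms disagreed. Of the 10 genes, 8 had at least 1 TPM in at least 2 libraries and entered it. SPINT1, SPINT2 and SPINK1, the last at 1.46 and 0.78 TPM in the PLC/PRF/5 knockdown and control, met that filter only through the line where they are high. Their line differences are values with no test. Those of PI3 and SLPI have no test either, because the disagreement of the arms holds the Huh7 contrast that served in their choice. Of the other members in the fit, SERPINB9 and CST3 passed as higher in Huh7 and SERPINB1 did not pass. Over all 13813 genes, 28.3% passed as higher in Huh7 and 31.5% as higher in PLC/PRF/5, so a line difference that passes is common and the sizes say more than the count. SLPI differed by -3.54, from -1.68 between the knockdown libraries and -5.41 between the controls. PI3 changed order with the arm: Huh7 was higher by 2.25 between the knockdown libraries and lower, at -0.67, between the controls, so its fitted value of 0.79 describes neither arm. The calls of SERPINB9 and CST3 were lost when no filter was applied to low values, where no gene of 25343 passed. With 1 residual degree of freedom the p-values of this fit reflect how alike the lines differed in the arms and not variation between cultures.

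**Figure D3:**
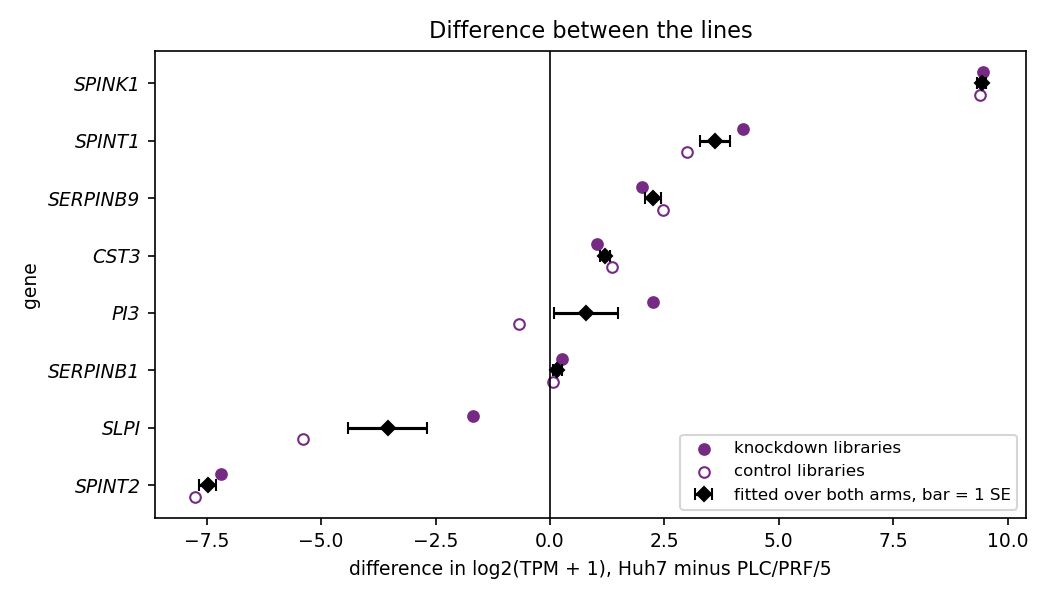
Difference in log2(TPM + 1), Huh7 minus PLC/PRF/5, for the 8 genes of the fit; filled circles compare the knockdown libraries, open circles the controls, and diamonds give the fitted value over both arms with 1 standard error. SPINK1 lies at 9.43 and SPINT2 at -7.48 with both arms close together, whereas the arms of PI3 fall on both sides of 0.

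The enzymes that these inhibitors are known to block were unevenly transcribed. Of 21 serine proteases listed as targets, 7 were at 0 in every library, among them the neutrophil proteases ELANE and CTSG, the pancreatic trypsins PRSS1 and PRSS2, and GZMB. PRTN3, neutrophil proteinase 3, reached 1.4 TPM in the PLC/PRF/5 control, and PRSS8, the membrane protease prostasin, stayed at 0.13 TPM or less. ELANE and CTSG are known targets of SLPI, PRSS1 and PRSS2 of SPINK1, GZMB of SERPINB9, and PRSS8 of the Kunitz inhibitors. PRSS3 encodes mesotrypsin, a trypsin that cleaves trypsin inhibitors; it stood at 56.8 and 21.1 TPM in the Huh7 knockdown and control, and was at 0 and 0.06 TPM in the PLC/PRF/5 knockdown and control. Its line difference was 5.12 on the log2 scale; it reached 1 TPM only in Huh7, so this value has no test.

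Matriptase, encoded by ST14, is the membrane protease that SPINT1 inhibits in epithelia. ST14 stood at 10.2 TPM in the Huh7 knockdown and 2.1 TPM in the Huh7 control, and at 0.22 and 0.07 TPM in the PLC/PRF/5 knockdown and control. Like SPINT1 it was higher in Huh7, by 2.37, a value with no test because ST14 too reached 1 TPM only there. In Huh7 the knockdown library was higher for both, by 1.85 for ST14 and 1.25 for SPINT1. EPCAM, an adhesion protein that matriptase can cleave, was at 131 and 50.1 TPM in the Huh7 knockdown and control, and was at 0 and 0.11 TPM in the PLC/PRF/5 knockdown and control. HPN, hepsin, a protease of the hepatocyte surface, was at 17.6 and 15.9 TPM in the Huh7 knockdown and control and at 11.1 and 23.7 TPM in the PLC/PRF/5 knockdown and control. HGFAC, the activator of hepatocyte growth factor, reached 1.5 TPM in the Huh7 knockdown, and MET, the receptor of that factor, lay between 58.3 and 160 TPM in all 4 libraries.

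**Figure D4:**
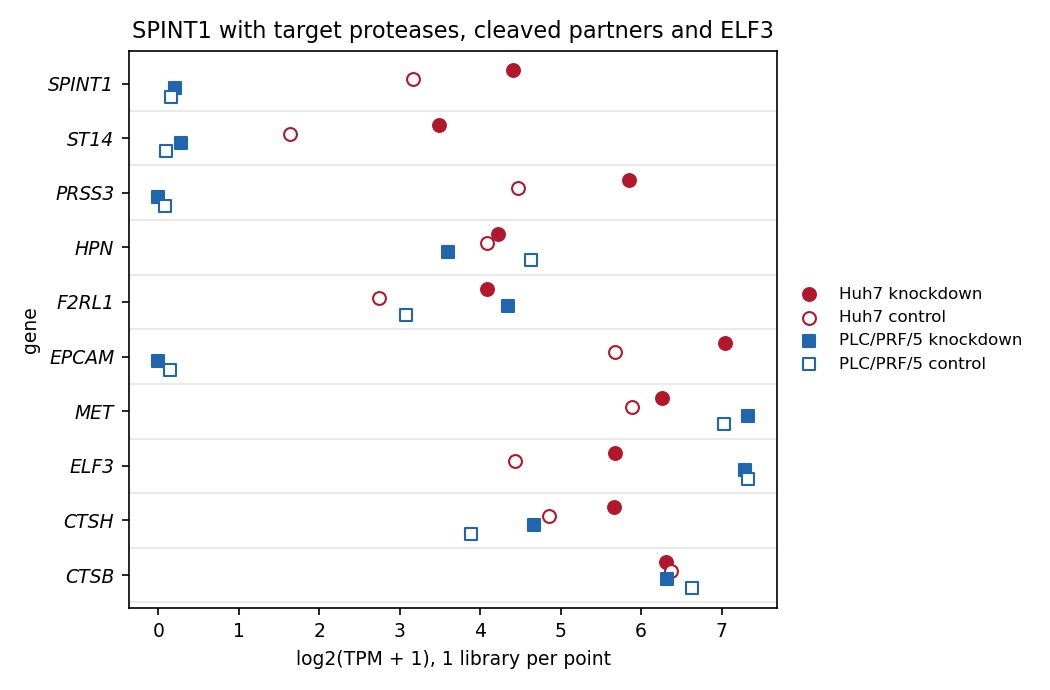
Level as log2(TPM + 1) of SPINT1 with proteases, cleaved partners and the epithelial transcription factor gene ELF3 in the 4 libraries; filled symbols are knockdowns, open symbols controls, circles Huh7 and squares PLC/PRF/5. SPINT1, ST14, PRSS3 and EPCAM are higher in the Huh7 knockdown than in the Huh7 control and at 0.22 TPM or less in PLC/PRF/5, and F2RL1 is higher in the knockdown library of each line.

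F2RL1, which encodes PAR2, a receptor switched on by trypsin-like proteases and matriptase, stood at 15.9 and 5.67 TPM in the Huh7 knockdown and control and at 19.4 and 7.46 TPM in the PLC/PRF/5 knockdown and control. The knockdown was higher by 1.34 and 1.27, a mean of 1.31 (standard error 0.15) that did not pass over all genes in limma (adjusted p = 0.129). SCNN1A, a subunit of the epithelial sodium channel that membrane proteases activate, was lower in each knockdown, at 14.4 and 24.7 TPM in the Huh7 knockdown and control and at 1.41 and 3.32 TPM in the PLC/PRF/5 knockdown and control (mean -0.79, standard error 0.17, limma adjusted p = 0.177). Of the 10 cysteine cathepsins, the targets of CST3, all were transcribed at 1 TPM or more in at least 1 library. CTSB, cathepsin B, was even, between 78.4 and 98.0 TPM. CTSH, cathepsin H, was at 49.5 and 27.9 TPM in the Huh7 knockdown and control and at 24.5 and 13.8 TPM in the PLC/PRF/5 knockdown and control, with a mean difference of 0.80 (standard error 0.12, limma adjusted p = 0.141). CTSL, cathepsin L, was lower in Huh7 by 1.76 on the log2 scale, at 55.8 and 47.9 TPM in the knockdown and control, against 162 and 194 TPM in PLC/PRF/5.

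The secreted serpins of liver are a family with members that inhibit elastase and clotting enzymes. Of the 14 listed, all reached 1 TPM in Huh7 and 10 did so in PLC/PRF/5, where SERPINA7 was listed at 0 in both libraries. All 14 were considered in Huh7, with a median of 0.23; none was 2-fold higher and 1 was 2-fold lower, beside 3.1% and 1.54% of all genes considered there. In PLC/PRF/5, 10 were considered, with a median of -1.002; 1 was 2-fold higher and 5 were 2-fold lower, beside 1.72% and 1.11% of all genes considered there. SERPINA1, which encodes alpha-1-antitrypsin, had 1990.2 and 2528 TPM in the Huh7 knockdown and control and at 972 and 1303 TPM in the PLC/PRF/5 knockdown and control, and SERPINA3, antichymotrypsin, differed by -1.29 and -1.06. SERPING1, the C1 inhibitor gene, was at 462 and 405 TPM in the Huh7 knockdown and control and at 1.6 and 5.78 TPM in the PLC/PRF/5 knockdown and control. Of 7 other Kunitz-domain genes, AMBP, the bikunin precursor, was the most abundant, at 2944 and 2032 TPM in the Huh7 knockdown and control and at 565 and 556 TPM in the PLC/PRF/5 knockdown and control, and none of the 5 considered in each line differed 2-fold. Of 14 genes of epithelial innate defence, 8 stayed under 1 TPM in every library. ELF3, an epithelial ETS factor, was at 50.2 and 20.5 TPM in the Huh7 knockdown and control and at 156 and 160 TPM in the PLC/PRF/5 knockdown and control; NFKBIZ, an NF-kB regulator of mucosal genes, was higher in each knockdown, by 0.69 and 0.99. Over all 121 related genes, 55 entered the fit and none passed the knockdown difference common to both lines in either direction, where 0% of all 13813 genes passed as higher and 0.00724% as lower. At an unadjusted p under 0.05 there were 8 higher and 7 lower of the 55, where 12.7% of all genes were higher and 5.24% lower at that threshold.

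By the smallest Euclidean distance between profiles of log2(TPM + 1), centred over the 4 libraries, the genes most like PI3 were EDN1 (distance 0.66), PLA2G4C (1.12) and CDH17 (1.15), where the median distance of 13812 genes was 2.75. EDN1 stood at 40.9 and 5.21 TPM in the Huh7 knockdown and control and at 13.0 and 8.48 TPM in the PLC/PRF/5 knockdown and control. Nearest to SLPI were NNMT (0.52), CD109 (1.02) and UGT1A1 (1.03), where the median distance was 4.09. NNMT stood at 11.4 and 1.75 TPM in the Huh7 knockdown and control and at 48.2 and 87.5 TPM in the PLC/PRF/5 knockdown and control. PI3 and SLPI were 4.48 apart, more than either median. A profile here has 4 points, so likeness describes these libraries only.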

How the data were processed

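RNA was measured in 4 libraries, 1 per line and arm, grouped by the sample titles. The authors deposited TPM values by gene symbol, rounded to 2 decimals; cutadapt, RSEM 1.2.21 and hg19 are listed there, per the submitters' processing notes. The sources used here do not give the aligner, annotation or strand setting. TPM fixes each library's total, so abundant transcripts move the others, and depth is unknown: no counting interval or detection limit could be given. RSEM divides ambiguous reads by a model; at most 9.33% of the 31-base words of any member's longest transcript (SPINK1) occurred in another gene of GENCODE 29, and none did for PI3, SLPI, WFDC2, SPINT1, SERPINB5 and CST3.

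Differences are on log2(TPM + 1). Genes with at least 1 TPM in a library of a pair were considered for the 2-fold size rule. Limma 3.58.1 (R 4.3.3) was fitted on 13813 genes with at least 1 TPM in at least 2 libraries, with line and arm as terms, a variance trend, two-sided tests and Benjamini-Hochberg adjustment over all genes at 0.05. The fit was also run on simulated data drawn from its own model and variances, which cannot show how it behaves with variation between cultures. Members got no p for the knockdown, since the Huh7 contrast served in their choice. No p for the line difference is given for PI3 and SLPI either, since the disagreement of the arms holds that contrast. Members, the 10 lists of 121 related genes and the tests were chosen with earlier results of these data known. Named genes were all members, SCD, fixed target proteases, the 2 most abundant and 2 most changed genes per list, and the 3 nearest profiles of PI3 and SLPI; neighbours of members and single cell markers were named after their values were seen. Figures used Python 3.11.15 and matplotlib 3.10.9. Protein sequences were not used here.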

Additional observations from a re-analysis of the deposited data

Results flagged for a closer look

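Within a line, single-library differences of opposite sign in Huh7 and PLC/PRF/5 drew attention for 10 of 30 named genes considered in both lines. None of these contrasts was tested, since there was 1 library per group. Nothing is read from that count. The share over all genes is not given here, and some genes were named for a large mean difference over the lines. For SLPI the difference in Huh7 exceeded that in PLC/PRF/5 by 3.73 on the log2 scale (2.91 and -0.82). For CST3 that gap was -0.33 (-0.11 and 0.21). Among related genes, the gap, Huh7 minus PLC/PRF/5, was 1.57 for SERPING1, 1.28 for the transcription factor gene ELF3 and 1.16 for the hepsin gene HPN. It was 0.67 for TFPI, an inhibitor of tissue factor, 0.53 for RECK, 0.48 for the cathepsin gene CTSL, 0.20 for SERPINB6 and -0.26 for SPOCK2.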

How the results depend on the processing

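The labels carry no replicate numbers; the arms were paired by cell line alone, as a term of the fit, and with 1 library per group no replicate could be left out. The 3 members 2-fold different in Huh7 became 2 with a pseudocount of 5 TPM (SPINT1 at 0.97) and stayed 3 in number with a pseudocount of 0.1 TPM, a filter of 5 TPM or none, and median-ratio scaling. In PLC/PRF/5 the number was 0 under the same alternatives. Of the members with a test of the line difference, SERPINB9 and CST3 had an adjusted p under 0.05 in limma. SPINK1, SPINT1 and SPINT2, which met the filter only through 1 line, are left out here, as are PI3 and SLPI, chosen on the Huh7 contrast. SERPINB9 and CST3 kept it under 6 of 7 alternatives, including a fit without the arm term and one without the variance trend. With no filter on low values neither passed, nor did any other gene, and the cause was not tested. There, limma adjusted p was 0.0827 for SERPINB9 and 0.0946 for CST3. Over the 7 alternatives, limma adjusted p of SERPINB1 ran between 0.135 and 0.486. The number of related genes passing the common knockdown difference was 0 under every alternative run, the fit without the cell line term included. With median-ratio scaling the higher share of 2-fold genes in PLC/PRF/5 was 44.3%, against 60.8% as deposited. WFDC2, under 1 TPM in PLC/PRF/5, passed 2-fold there only with a pseudocount of 0.1 TPM (1.93). TPM keeps no depth, so low values such as those of WFDC2 and SERPINB5 cannot be given a limit.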
